A study of Homo sapiens with 11 samples.

Results

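The 8 regions described here are stretches of the human genome that are rich in transfer RNA (tRNA) genes, and the members are the JMJD1C binding sites called inside them in Kasumi-1 cells. A site was a member when its summit lay in 1 of 3 regions of chromosome 6 (26.29 to 27.09, 27.12 to 27.77 and 27.87 to 29.0 Mb), 2 regions of chromosome 1 (145.2 to 149.78 and 161.35 to 161.65 Mb), or 1 region each of chromosome 17 (8.02 to 8.15 Mb), chromosome 5 (180.5 to 180.7 Mb) and chromosome 14 (21.05 to 21.2 Mb). All positions are in hg19. The rule found 289 of the 36191 peaks of the deposited list. The regions were selected on tRNA gene content and because 2 of them lie in megabases dense in peaks, so the number of peaks per megabase is given as a description and nothing rests on it. Peak lengths, tag numbers and fold enrichments took no part in the rule. The rule names the regions as rich in tRNA genes. No tRNA annotation of hg19 was used here, so whether a given peak lies on a tRNA gene was not measured, and the peaks are named by position.

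tRNA genes are transcribed by RNA polymerase III. The factor TFIIIC binds promoter elements inside the gene, called the A box and the B box, and brings in TFIIIB, which recruits the polymerase. Many human tRNA genes lie in clusters, of which the one on the short arm of chromosome 6 is the best known, where tRNA genes are mixed with genes of the replication-dependent histones. JMJD1C belongs to the JmjC-domain family of histone demethylases whose relatives act on methylated lysine 9 of histone H3, and it is known as a coactivator in leukaemia cells with the RUNX1-RUNX1T1 fusion. In the RefSeq gene table of GRCh38.p14, used for names and gene order alone, the 5 chromosomes with a region hold 323 of 443 nuclear tRNA genes (72.9%). Chromosome 6 has 155 tRNA genes and chromosome 1 has 98, against 33 on chromosome 17, 19 on chromosome 14 and 18 on chromosome 5.

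The series holds 11 libraries of chromatin immunoprecipitation and sequencing (ChIP-seq) or input DNA from the lines Kasumi-1, HL60, NB4 and THP-1. There are 4 JMJD1C libraries, 4 LYL1 libraries and 3 inputs, with 1 library for each line and target. The library used here is the JMJD1C ChIP of Kasumi-1, an established line labelled as myeloblasts of acute myeloblastic leukemia. Its chromatin was precipitated with a home-made serum directed at the N terminus of the protein. The other 10 libraries, the Kasumi-1 input among them, were not analysed here, so no value below is set against input DNA or another line. The library held 19897991 tags after 1 tag was kept per position. With 1 library there is no spread between replicates, no test was run, and intervals are exact 95% Poisson or Clopper-Pearson intervals that cover counting error only. Peaks were called without a control, and fold enrichment compares the summit of a peak with a background taken from 10 kb of the same library around it. How tags that match more than 1 copy of a duplicated sequence were placed is not given in the sources used here. This may bear on both regions of chromosome 1, where peaks recur at fixed distances. Whether those peaks lie in duplicated sequence was not measured.

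The 8 regions together span 7.94 Mb and held 36.4 peaks per Mb (95% interval 32.3 to 40.8), against 12.6 peaks per Mb over the autosomes, a ratio of 2.89 (2.56 to 3.24). Peaks covered 2.13% of the bases of the regions and 0.716% of the autosomal span. These spans count every position, and unsequenced stretches of hg19 were not taken out. Tags in peaks amounted to 1750 per Mb in the regions, against 627 per Mb on the autosomes, 2.79 times as many. Density differed between the regions. The shorter chromosome 1 region had 93.3 peaks per Mb (62.0 to 135, 28 peaks), followed by chromosome 17 with 92.3 (47.7 to 161, 12 peaks), chromosome 14 with 66.7 (32.0 to 123, 10 peaks) and chromosome 5 with 65.0 (34.6 to 111, 13 peaks). These 4 intervals overlap, so their order is not settled. The chromosome 6 regions had 37.5, 41.5 and 50.4 peaks per Mb from 30, 27 and 57 peaks. The longer chromosome 1 region had the lowest density of the 8, 24.5 peaks per Mb (20.1 to 29.4), although with 112 peaks it supplied the most members.

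Peak density beside the regions is given in the same way, as a description. With up to 0.5 Mb taken on each side, the density inside was 3.55 times that beside it on chromosome 17 (92.3 against 26.0 peaks per Mb) and 3.32 times on chromosome 5 (65.0 against 19.6). It was 2.52 times at the shorter chromosome 1 region (93.3 against 37.0) and 2.15 times on chromosome 14 (66.7 against 31.0). On chromosome 14 the intervals overlapped (32.0 to 123 inside, 21.1 to 44.0 beside), so the order there is not settled. At the other short regions they did not overlap. The 3 chromosome 6 regions had 44.2 peaks per Mb together, against 49.6 in what lies between and beside them. That value includes the 2 gaps between the regions, 0.13 Mb that the rule leaves out, which held 20 peaks or 154 per Mb (94.0 to 238). Without the gaps, the outer 0.5 Mb on each side held 36 peaks, 33 before the first region and 3 after the last. This gives 36 per Mb, against 44.2 inside. The side before the first region was denser than the regions, and the side after the last was sparser. The order on chromosome 6 is therefore not settled. The longer chromosome 1 region had 24.5 peaks per Mb against 45.0 beside it, 0.543 of the density of its surroundings, and 30 of the 45 peaks beside it lay on the far side, beyond its end.

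**Figure D1:**
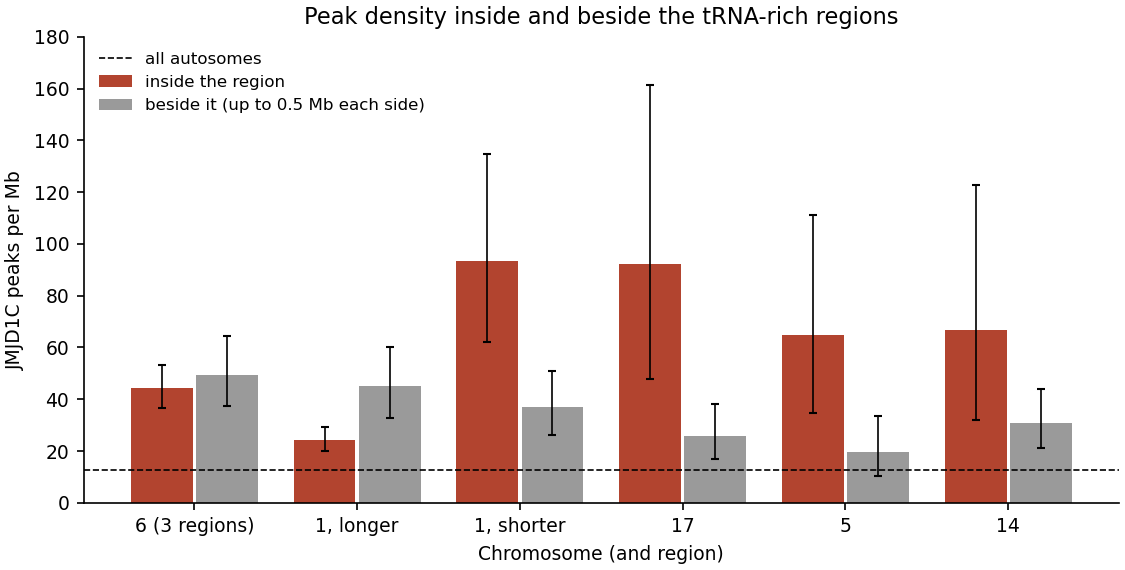
Bars give JMJD1C peaks per Mb (y axis) inside each region or set of regions (red) and beside it (grey), by chromosome (x axis); error bars are exact 95% Poisson intervals and the dashed line is the autosomal density of 12.6 peaks per Mb. The red bar is above the grey one at the 4 short regions, from 65.0 to 93.3 peaks per Mb inside, and below it at the longer chromosome 1 region; at chromosome 6 the grey bar (49.6) includes the 2 gaps between the regions and is 36 without them.

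Taken peak by peak, binding in the regions was close to that of the rest of the list. The members held a median of 34 tags (quartiles 21 and 52), against 30 (18 and 56) in the other 35902 peaks. Their median length was 495 bp (quartiles 386 and 675 bp), against 477 bp (358 and 668 bp) elsewhere. Among peaks with scores of 100 or more the order was the other way, at 47 tags and 606 bp in members and 51 tags and 612 bp elsewhere. The median fold was 10.29 (quartiles 8.06 and 13.59) in the regions and 10.87 (8.62 and 14.66) elsewhere. Folds of 10 or more occurred in 151 members, 52.2% (46.3% to 58.1%), where the share over all peaks was 60.1%. The interval of the members ends below that background, but it treats peaks as independent, and neighbouring peaks share part of their background. The share was 57.9% (48.3% to 67.1%) in the chromosome 6 regions and 48.6% (41.0% to 56.2%) in the other 5 regions. The difference from the list was not tested. Folds of 20 or more occurred in 28 members, 9.69% (6.53% to 13.7%), where the share over all peaks was 9.84%, so at this level the members were near the background. Scores of 100 or more, on a scale of 10 times the negative log10 of the caller's p-value, were given to 159 members, 55.0% (49.1% to 60.8%), and by 52.8% of all peaks. Very short peaks of up to 300 bp made up 10.0% of the members (29 peaks, 6.82% to 14.1%) and 13.4% of all peaks. Peaks over 1000 bp made up 10.4% (30 peaks, 7.11% to 14.5%) and 8.29% of all peaks.

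The share of members among the strongest sites of the genome was near that of the whole list. Of the 1000 peaks with the most tags, 7 were members (2.42% of the members, 0.979% to 4.93%), and of the 1000 with the highest fold, 10 (3.46%, 1.67% to 6.27%), where the top 1000 make up 2.78% and 2.79% of the list. The members with the most tags all lay on chromosome 1. The first was the peak from 145208226 to 145210328, which held 374 tags (337 to 414) at a fold of 18.29 and ranked 187 by tags in the whole list. It was followed by the peak from 149223059 to 149224824, where 351 tags (315 to 390) gave a fold of 21.23, and by the peak from 161416118 to 161418218, where 264 tags (233 to 298) gave 8.29. The peak from 149759015 to 149760158 had 239 tags and that from 149374200 to 149375216 had 234 tags. Their folds were 13.34 and 11.67. By fold the order was different, and none of these 5 was among the 5 members of highest fold. The highest fold of any member was 39.99, in the chromosome 1 peak from 147510464 to 147511349 with 163 tags (139 to 190), which ranked 43 by fold in the whole list.

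**Figure D2:**
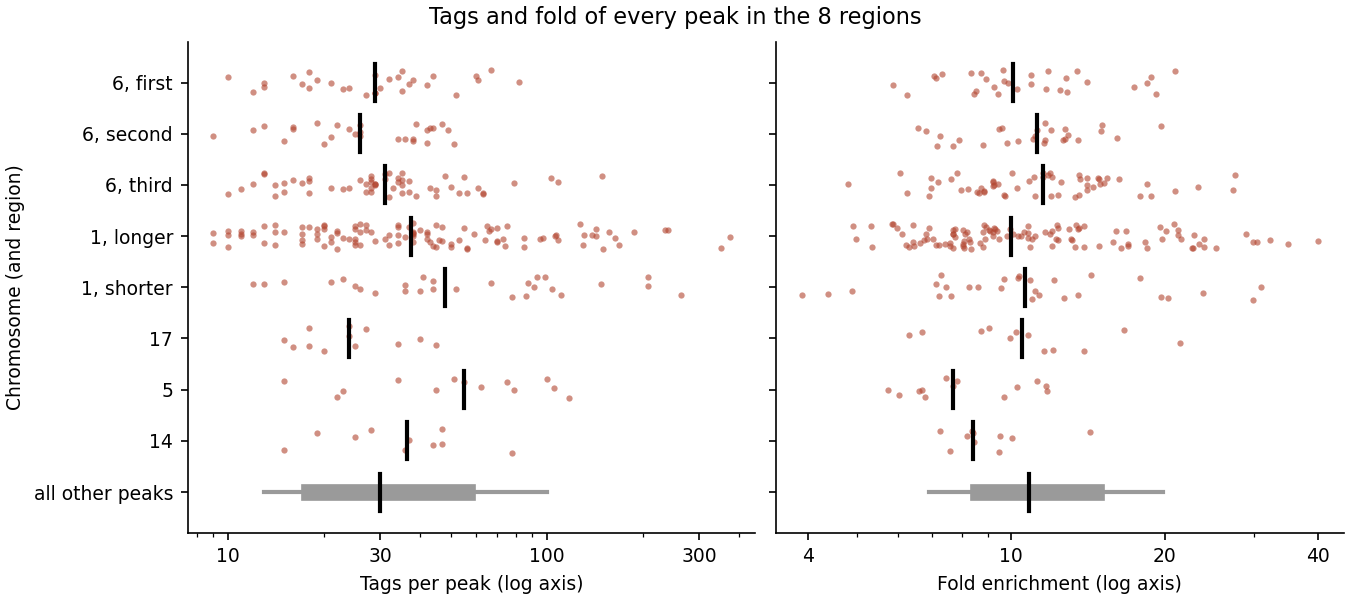
Each red point is 1 of the 289 peaks, with its tags (left, log axis) or its fold enrichment (right, log axis) and its region on the y axis; black bars are medians, and for all other peaks the thick and thin grey bars span the quartiles and the 10th to 90th percentiles. Median tags run from 24 on chromosome 17 to 55 on chromosome 5, while the lowest median fold, 7.69, is also on chromosome 5.

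The 3 chromosome 6 regions held 114 peaks, with a median length of 478.5 bp, near the 477 bp of all peaks. RefSeq lists 14 runs of 2 or more neighbouring tRNA genes on the whole of this chromosome, the longest of 33 genes between ZNF184, which encodes a zinc-finger protein, and the histone gene H2BC13. Another run, of 29 genes, lies between SCAND3 and TRIM27, and further runs border the butyrophilin genes BTN3A2 and BTN1A1. Median tags were 29 in the first region, 26 in the second and 31 in the third, and median folds 10.08, 11.25 and 11.56. Peaks over 1000 bp numbered 5 of 114 (4.39%, 1.44% to 9.94%), an interval that holds the 8.29% of all peaks. Folds of at least 20 occurred in 5 of the 114 peaks (4.39%, 1.44% to 9.94%), an interval that just holds the background of 9.84%.

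In the first chromosome 6 region, the peak with the most tags lay from 26521336 to 26522524, with 82 tags (65.2 to 102) at a fold of 9.7. The highest fold there was 20.96, in the peak from 27059449 to 27059981 with 52 tags (38.8 to 68.2). Peaks were concentrated in part of the region. The first 100 kb and the window from 26.49 to 26.59 Mb held 9 peaks each, and the other 6 windows held 1 to 4. The first of these windows held a run of 6 peaks from 26296240 to 26330722, each within 10 kb of the next, with 188 tags in all. In the second region no peak exceeded 51 tags, a value reached by the peak from 27145499 to 27146386 at a fold of 7.68. Its highest fold was 19.69, from 27356468 to 27356989, with 49 tags (36.3 to 64.8).

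The third chromosome 6 region had the most peaks of the 3 and the strongest single site. The peak from 28458997 to 28459602 had both the most tags, 149 (126 to 175), and the highest fold, 27.48, and ranked 1701 by tags in the whole list. Peaks were spread along the region, with 1 to 9 in each of the 11 full windows of 100 kb. The densest window ran from 28.77 to 28.87 Mb, with 9 peaks and 298 tags. A run of 5 peaks lay in the next window, from 28908690 to 28921194, with 113 tags. Past the last member the next peak lay 458 kb beyond the end of the region. The peak nearest to its start on the outer side had 49 tags at a fold of 4.94.

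**Figure D3:**
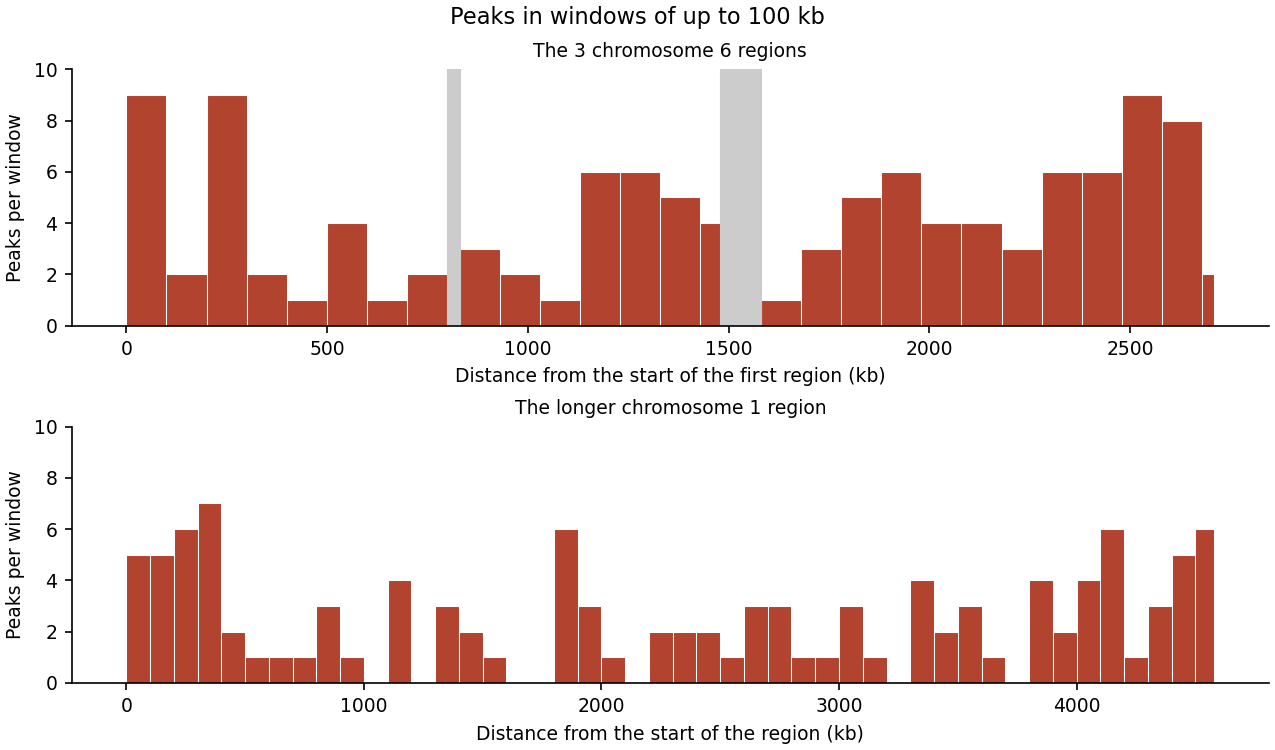
Bars count peaks (y axis) in consecutive windows of 100 kb, or less at the end of a region, along the 3 chromosome 6 regions (top, with the gaps left out by the rule in grey) and the longer chromosome 1 region (bottom), by distance in kb. No full window is empty in the chromosome 6 regions, whereas 7 of 45 are empty in the longer chromosome 1 region. Unsequenced stretches of hg19 were not taken out of the windows.

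The longer chromosome 1 region had the fewest peaks per Mb of the 8 regions, at 1.94 times the autosomal density, and held the 3 highest folds of any member. Of its 45 full windows of 100 kb, 7 held no peak and 7 held 5 or more, and the longest distance between neighbouring summits was 299 kb. Whether unsequenced stretches of hg19 lie in the empty windows, and so lower the density, was not tested. Its median fold was 10.02, below the 10.87 of other peaks, but 18 of its 112 peaks had a fold of at least 20 (16.1%, 9.81% to 24.2%), an interval that reaches the background of 9.84%. These 18 are the larger part of the 28 members at that level. Tags ranged from 9 to 374 with a median of 37.5. Of the 112 peaks, 15 were over 1000 bp long (13.4%, 7.69% to 21.1%), an interval that holds the 8.29% of all peaks. Over the whole of chromosome 1, RefSeq gene order has 20 runs of 2 or more tRNA genes. Several of them border members of duplicated gene families, such as NBPF10, NBPF11 and NBPF20 of the neuroblastoma breakpoint family, and the cyclophilin-like PPIAL4 genes. This order is that of GRCh38.p14 and was not matched to hg19, so which runs lie inside the region was not measured.

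Within the longer chromosome 1 region, several sharp peaks resembled each other. The peaks from 147953089, 148200330, 148645695, 148807659 and 149554721 had 143, 130, 131, 139 and 127 tags. Their lengths were 603, 632, 523, 519 and 550 bp, and their folds 28.89, 32.26, 29.85, 30.42 and 23.95. The Poisson intervals of their tags overlap, from 106 to 151 for the lowest and from 121 to 168 for the highest. Each had a second member at nearly the same distance, 40.8 to 41.1 kb from summit to summit. The second members were less alike, with 143, 85, 22, 10 and 65 tags. In the first 2 of these pairs the peak named first comes first along the chromosome, and in the other 3 it comes second. Over the whole region, 41.0 kb was the distance between 20 and 100 kb that most pairs of summits shared, with 6 pairs within 100 bp and 7 within 300 bp. Not all of these pairs held such a strong peak. In the remaining pairs the tag-richer peaks, from 146383690 and 149683950, had 46 and 43 tags at folds of 21.25 and 8.08. In the other 7 regions no distance in that range was shared by more than 3 pairs within 100 bp. The sharp peaks and their pairs were singled out with their values in view, and the number of pairs grows with the number of peaks in a region.

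The shorter chromosome 1 region carried a run of peaks at repeated steps, singled out with the values in view. RefSeq lists 27 tRNA genes in an unbroken run between CFAP126, which encodes a protein of cilia and flagella, and the Fc receptor gene FCGR2A. Whether the whole of that run lies inside the region was not measured. Within that run, tRNA genes for glutamate (TRE-CTC1), glycine (TRG-TCC2), aspartate (TRD-GTC2), leucine (TRL-CAG1) and glycine (TRG-GCC1) follow each other in this order 3 times without a gap, with incomplete or variant copies beside them. The peaks formed a run of 8 from 161409685 to 161440375, in which each lay within 10 kb of the next. They held 1183 tags over 30.7 kb, which was the largest number of peaks in any such run among the members. The run made up 8 of the 28 peaks of the region and 1183 of its 2100 peak tags.

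In this run the tag-rich peaks started at 161416118, 161423737, 161431430 and 161438753, with 264, 208, 148 and 207 tags. Their summits followed each other at steps of 7.41, 7.37 and 7.38 kb. Just behind the last 3 of them lay a smaller peak, from 161424959, 161432369 and 161439739, with 86, 93 and 78 tags and steps of 7404 and 7358 bp. These 3 had folds of 3.89, 4.37 and 4.87, and the first of them had the lowest fold of all members. The tag-rich peaks had folds of 8.29, 7.62, 8.63 and 9.71. The remaining peak of the run, from 161409685, had 99 tags at a fold of 7.22. With many tags and low folds, the run differed from the sharp peaks of the longer region. The background of these folds is taken from the 10 kb around a peak and includes its neighbours in the run. Steps of 7.36 to 7.41 kb joined 5 pairs of summits. No distance up to 20 kb was shared by more pairs in any of the 8 regions, although in the longer chromosome 1 region, with 112 peaks, 5 pairs shared a distance of 13.3 to 13.4 kb. Whether these peaks lie on copies of a repeated sequence, or on the tRNA genes named above, was not measured. If they do, binding in each copy and in some of them cannot be told apart where copies have the same sequence.

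Further along the same region, peaks recurred at a distance of about 82 kb. The highest fold of the region, 30.94, belonged to the peak from 161623341 to 161623810 with 91 tags (73.3 to 112), and the next highest, 29.84, to the peak from 161541528 to 161541963 with 87 tags. Their summits are 81.8 kb apart, and their lengths are 470 and 436 bp. Another pair at 81.8 kb, from 161546493 and 161628264, had 36 and 40 tags and folds of 10.88 and 10.38. One more pair, from 161532319 and 161613602, had 13 and 15 tags at a distance of 81.3 kb. The remaining pairs were less alike. The peaks from 161509819 and 161591593 had 44 and 36 tags at folds of 19.69 and 11. The peak from 161582020, with 67 tags, was paired with those from 161500046 and 161500701, with 21 and 44 tags. In all, 6 pairs were found, at distances from 81.3 to 82.1 kb, and the peak from 161582020 was in 2 of them. The range searched was set by hand, and was wider than this span and than the 100 bp used above. Within 100 bp, the distance between 20 and 100 kb that most pairs of this region shared was 21.6 kb, with 3 pairs. In the 6 pairs the larger tag number of a pair was a median of 1.19 times and at most 3.19 times the smaller. In RefSeq a further 3 tRNA genes of chromosome 1 lie between HSPA6, a heat shock protein gene, and FCGR3A, another Fc receptor gene. Their place in hg19 was not measured. The pairs at this distance were also picked with their values in view.

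**Figure D4:**
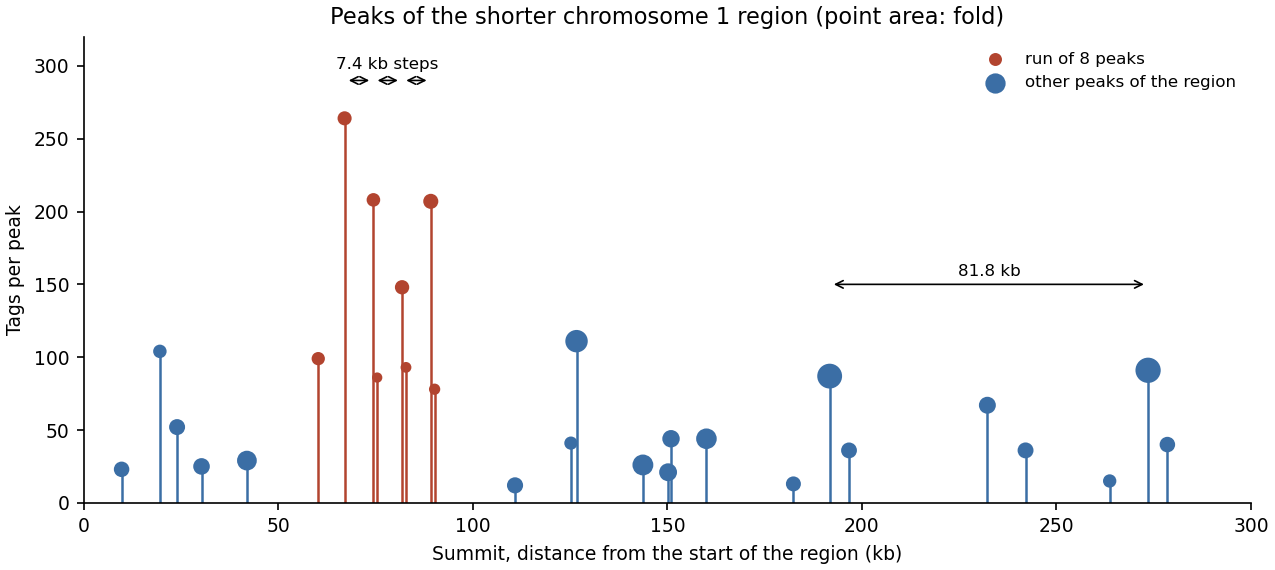
Stems give the tags (y axis) of each peak of the shorter chromosome 1 region by the distance of its summit from the start of the region in kb (x axis), and point area follows fold. The run of 8 peaks (red) rises to 264 tags in steps near 7.4 kb with small points, and the 2 peaks of highest fold, 29.84 and 30.94, stand 81.8 kb apart.

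On chromosome 17 the 12 peaks were small, and 8 of them lay in close pairs. In RefSeq gene order, tRNA genes of this chromosome stand beside HES7, a repressor of the segmentation clock, and PER1 of the circadian clock. Others stand beside the mitotic kinase gene AURKB and CTC1, which acts in telomere replication. Which of them lie inside the region was not measured. Tags ranged from 15 to 45 with a median of 24, the lowest of the 8 regions, and no peak exceeded 726 bp. The peak from 8076401 to 8076961 had both the most tags, 45 (32.8 to 60.2), and the highest fold, 21.44. Of the 12 peaks, 8 had another peak within 2 kb (66.7%, 34.9% to 90.1%), where the share over all peaks was 20.1%. At 92.3 peaks per Mb, more close neighbours come with the density of the region, and pairing beyond that was not tested. All 12 had one within 10 kb. These 8 formed 4 close pairs. Summits also recurred at a wider spacing, with 3 pairs of them 12985 to 12994 bp apart, a pattern singled out with the values in view. It is the distance up to 20 kb that most pairs shared here, and such a recurrence was not particular to this region. The third chromosome 6 region also had 3 pairs at a shared distance (9567 to 9680 bp), and the chromosome 1 regions had 5 each.

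The 13 peaks on chromosome 5 had the highest median length and surrounding signal of the 8 regions. In RefSeq gene order, tRNA genes of this chromosome border TRIM7 and TRIM41, which encode ubiquitin ligases, and the olfactory receptor genes OR2V1 and OR2V2. Which of them lie inside the region was not measured. The 13 peaks had a median length of 818 bp and a median tag number of 55, against 477 bp and 30 tags in peaks outside the 8 regions. Of the 13, 5 were over 1000 bp (38.5%, 13.9% to 68.4%), where the share over all peaks was 8.29%. Their median fold was the lowest of the 8 regions at 7.69. Of the 13, 4 reached a fold of 10 (30.8%, 9.09% to 61.4%), an interval that holds the 60.1% of all peaks. The peak from 180649825 to 180650942 had the most tags, 117 (96.8 to 140), at a fold of 11.72. The highest fold, 11.78, was that of the peak from 180633629 to 180634446 with 51 tags. Both belonged to a run of 5 peaks over 17.3 kb with 380 tags. The first peak lay 86.5 kb inside the start of the region and the last 11.9 kb from its end.

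On chromosome 14, 10 peaks had a median of 36.5 tags and a median fold of 8.44. RefSeq lists runs of 7 tRNA genes on both sides of the olfactory receptor gene OR6S1 of this chromosome. One of the runs borders ANG, the gene of angiogenin, a ribonuclease that cleaves tRNAs. Whether these runs lie inside the region was not measured. The peak from 21081226 to 21082277 had the most tags, 78 (61.7 to 97.3), at a fold of 8.42, and the peak from 21093414 to 21093958 the highest fold, 14.3, with 44 tags. Of the 10 peaks, 2 reached a fold of 10 (20%, 2.52% to 55.6%), against 60.1% of all peaks, and 7 had another peak within 2 kb (70.0%, 34.8% to 93.3%), against 20.1% of all peaks. Here too, at 66.7 peaks per Mb, more close neighbours come with the density of the region. The last 3 lay from 21149330 to 21152618, with 47, 37 and 47 tags.

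Neighbours were frequent in the short regions and not in the longest one. Over the members, 178 had another peak within 10 kb (61.6%, 55.7% to 67.2%), where the share over all peaks was 49.7%. A dense region gives more neighbours by its density, which took part in the choice of the regions. The share was 92.1% (82.4% to 97.4%) over the 63 peaks of the 4 short regions and 58.8% (49.2% to 67.9%) on chromosome 6. In the longer chromosome 1 region it was 47.3% (37.8% to 57.0%), near the background. Joined at up to 10 kb, the members formed 177 runs, of which 112 held a single peak and 4 held 5 or more. Those 4 runs held 24 members (8.3%, 5.39% to 12.1%), and such runs held 6.9% of all peaks. Peaks on both sides of the edges of the regions overlapped in strength. The 16 peaks just inside an edge had 10 to 374 tags with a median of 28.5 and a median fold of 9.57, and the 16 just outside had 12 to 49 tags with a median of 25.5 and a median fold of 9.21.

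The signal around the peaks was slightly higher in the regions than elsewhere, an order that turned round among peaks with scores of 100 or more (105 in members, 106 in other peaks, in tags per 10 kb). It was recovered from the tags and score of each peak as the tags outside the peak per 10 kb, and was available for 282 members. Only the peak's own tags were taken off, so tags of neighbouring peaks in the same 10 kb are part of it. Another peak within 10 kb was more frequent among the members (61.6%) than over all peaks (49.7%). The signal without neighbouring peaks was not measured. The median was 107 tags per 10 kb in the regions (quartiles 84.3 and 157) and 99.7 (76.2 and 138) in the other peaks. It was 97.9 in the chromosome 6 regions, 111 in the longer chromosome 1 region, 134 in the shorter one, 106 on chromosome 17, 129 on chromosome 14 and 172 on chromosome 5. The caller uses no background below 73.7 tags per 10 kb, and this floor applied to 12 members (4.15%, 2.16% to 7.14%), against 7.72% of all peaks. Across the 282 members, which share 1 library and are not replicates, fold fell with rising surrounding signal (Spearman's rho -0.49, Pearson's r -0.33), and over 34253 other peaks the values were -0.39 and -0.24. Fold divides by the background from which this signal was recovered, so an opposite movement follows in part from the division. Length and tags rose together in the members (Spearman's rho 0.87), as in the other peaks (0.90), and length and fold did not (-0.02, against 0.04). The part that surrounding signal has in the number of peaks was not tested.

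**Figure D5:**
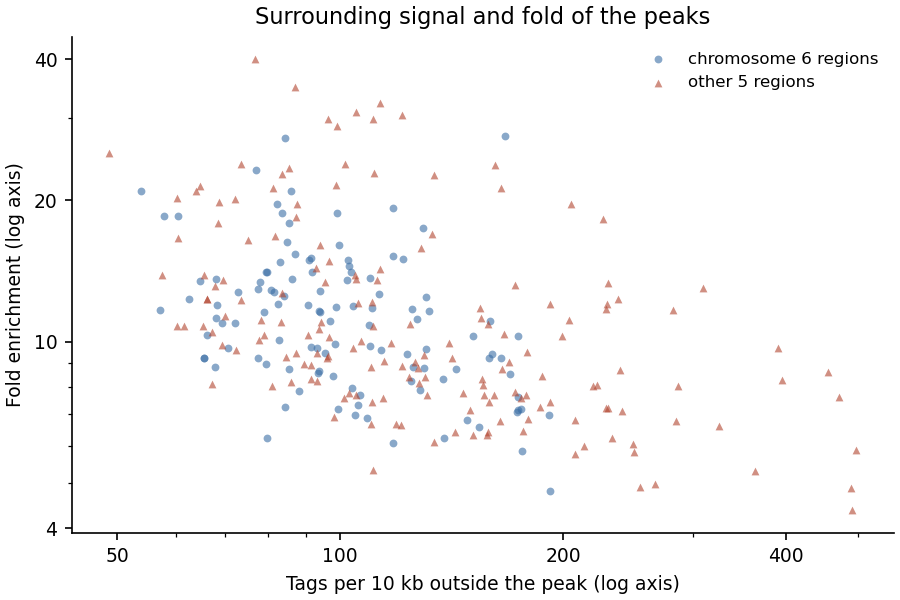
Each point is 1 of 282 peaks, with the tags per 10 kb outside the peak on the x axis and its fold enrichment on the y axis, both on log axes, in the chromosome 6 regions (blue circles) and the other 5 regions (red triangles). Folds of 20 or more occur at up to 167 tags per 10 kb, and the peak with the strongest surrounding signal, 498 tags per 10 kb, has a fold of 5.88. Tags of neighbouring peaks are part of the surrounding signal.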

How the data were processed

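JMJD1C ChIP-seq peaks of 1 Kasumi-1 library were used. The submitters' processing notes name hg19 as the build, with HOMER and Bowtie2 2.1.0. Peaks were called with MACS 1.4.2 without a control, at a p-value cutoff of 1e-05, per the file headers. The caller kept 1 of 29330355 tags per position, leaving 19897991, with fragments of 88 bp. For each peak the deposited list gives a tag count in whole numbers, a score (the caller's p-value as negative log10, multiplied by 10) and a fold, which divides summit height by local background (a ratio). None is normalised further. Without a control, copy-rich DNA can raise tags and peaks. Start, end, length and summit were used as deposited.

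Regions were read from the rule and peaks placed by start plus summit. Surrounding signal was solved from the Poisson tail, with a window of at least 176 bp, and used where the background came out within 0.05 of a whole number or 0.15 of the minimum of 73.7. On scores simulated with the same Poisson formula, 100% of 2867 backgrounds were recovered. This checks the solving step only, and cannot show that the caller built its scores in this way. Named sites are the peaks with the most tags and the highest fold in each region, the 5 highest of each overall and those at the edges; others were chosen after their values were seen. Members, regions and comparisons were chosen with earlier results of these data known. Gene names come from RefSeq (GRCh38.p14), with no positions. Computation used pandas 2.3.3, SciPy 1.17.1 and NumPy 2.4.6 under Python 3.11.15, and Matplotlib 3.10.9 for the figures. Alternatives varied score, fold, region edges, placement, regions included and distance.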

Additional observations from a re-analysis of the deposited data

How the results depend on the processing

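Of 51 alternative values of the 6 summary results, 37 stayed within the counting interval of the value reported. With a score of at least 100, the median length was 606 bp, the median tags 47, the median fold 12.63 and the share with a neighbour within 10 kb 43.4%, against 612 bp, 51 tags, 13.8 and 32.5% in the other peaks, so the order of members and other peaks in length and tags turned round; surrounding signal was 105 in members and 106 in the others. With a fold of at least 10, the density ratio was 2.53, the median fold 13.51, the share with a neighbour 31.8% and the surrounding signal 92.8 tags per 10 kb. These follow in part from the shorter lists. Without the longer chromosome 1 region the density ratio was 4.18 and the share with a neighbour 70.6%. Without the chromosome 6 regions the median was 38 tags and the surrounding signal 117. A neighbour lay within 2 kb in 24.9% and within 50 kb in 97.6%. Widening or narrowing the regions by 50 kb, and leaving out the shorter chromosome 1 region (chosen after seeing the data), moved none of the 6 beyond its interval. Placing peaks by midpoint left all 6 values as they were. The weakest members rest on 9 tags, which limits what depth can show there. No paired analysis was possible because every value comes from a single library.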
